A study of Mus musculus with 4 samples.

Results

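The Hox genes were examined in inguinal white adipose tissue (ingWAT), the subcutaneous fat pad of the groin. They were taken from the table of 19030 genes as every gene whose symbol is Hox, a cluster letter from a to d and a number, which gave 31 genes. Another 8 Hox genes known to RefSeq (*Hoxa11*, *Hoxa13*, *Hoxb1*, *Hoxc12*, *Hoxc13*, *Hoxd1*, *Hoxd12* and *Hoxd13*) were not analysed here. The tissue came from C57BL/6 mice aged 3 months and housed at 4°C. All mice carried *Oct3* (*Slc22a3*, a transporter that takes up norepinephrine) flanked by loxP sites. Ctrl mice had no deletion, and cKO mice also carried Adiponectin-Cre, which is driven by the promoter of an adipocyte gene and so targets adipocytes rather than the other cells of the pad. There were 2 libraries of each genotype, and the number of mice behind a library is not given in the sources used here, so the p-values measure only the spread between these libraries.

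Hox genes encode homeodomain transcription factors that tell cells where along the body axis they lie. In mammals they sit in 4 clusters, A to D, and members with the same number in different clusters are paralogues that derive from a common ancestral gene. Low numbers are used towards the head, middle numbers in the trunk and the highest numbers at the tail end and in the distal limb and genital region. Adult fibroblasts, adipose progenitors and adipocytes keep part of this code, so that each fat depot has its own set of Hox transcripts, and a change in that set can also be read as a check on which tissue was dissected.

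Expression was measured as FPKM, which divides a gene's fragments by transcript length and library depth, so levels can be compared between genes. *Slc22a3* was at 16.95 and 17.68 FPKM in Ctrl and at 9.07 and 9.5 in cKO (log2 fold change -0.83, adjusted p = 0.000439), in the direction of the labels. Depth, estimated from the steps between low FPKM values, was 17400000 to 18150000 reads per library. FPKM summed to between 484152 and 497839 per library. The 12658 genes averaging 1 FPKM or more over the libraries were tested for a genotype difference with limma, after a log2(FPKM + 1) transform that understates the change of low genes, with Benjamini-Hochberg adjustment over all of them.

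The depot expressed mostly middle-numbered Hox genes, with the Hoxc cluster at the highest level. Of the 31 genes, 22 had a mean of at least 1 FPKM, and each of these was at 1.27 FPKM or more in every library. Hoxc genes made up 57.7% of the summed Hox FPKM, Hoxb genes 17.8%, Hoxa genes 16.7% and Hoxd genes 7.75% (mean of the 4 libraries). Paralogues 4 to 10 held 93.5% of the sum, paralogues 1 to 3 held 6.36%, and the 3 genes listed from paralogues 11 to 13 held 0.139%. Paralogue 8 had the largest share at 25.8%, followed by paralogue 10 at 19.1%, paralogue 6 at 16.7% and paralogue 9 at 11.4%. In the table as a whole, 2399 genes had a higher mean than *Hoxc8*, the highest Hox gene.

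**Figure D1:**
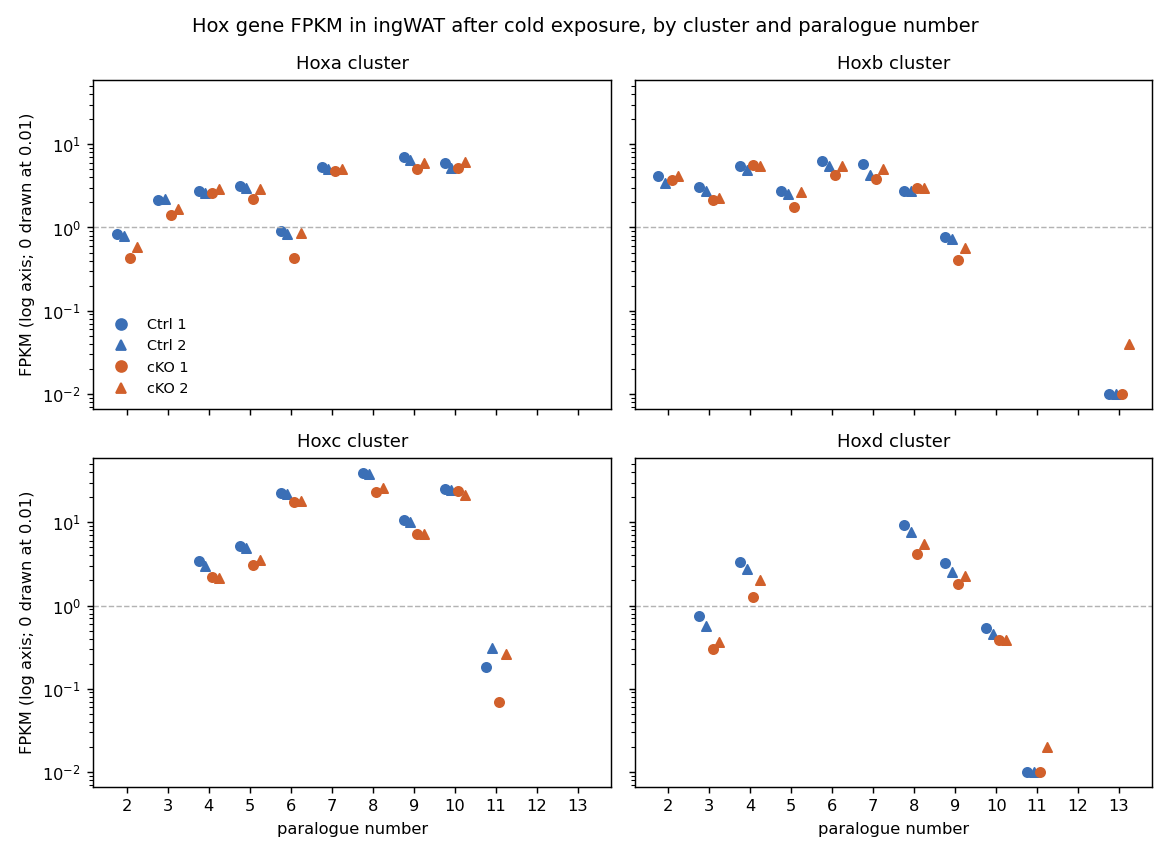
FPKM of the Hox genes with paralogue numbers 2 to 13 in each library (log axis, 0 drawn at 0.01) against the paralogue number, with 1 panel per cluster; blue points are Ctrl, orange points cKO, and the dashed line marks 1 FPKM. *Hoxc8*, *Hoxc10* and *Hoxc6* stand above every other Hox gene, and *Hoxb13* and *Hoxd11* are at 0 in 3 of the 4 libraries.

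The order of the levels was clear at the top and crowded below. In Ctrl, *Hoxc8* (37.9 to 39.52 FPKM), *Hoxc10* (24.2 to 25.38) and *Hoxc6* (21.73 to 22.71) followed one another without overlap between libraries, and then came *Hoxc9* (10.19 to 10.69), *Hoxd8* (7.71 to 9.35) and *Hoxa9* (6.43 to 7.12). In cKO the ranges of *Hoxc8* (22.9 to 25.58) and *Hoxc10* (21.1 to 23.58) overlapped, so their order was not resolved there. From *Hoxa10* down to *Hoxb7*, 5 genes had means of 4.71 to 5.62 FPKM, and their library ranges overlapped.

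Between genotypes, 7 of the 22 tested Hox genes fell in cKO, 0 rose and 15 did not pass. The 7 were *Hoxc4*, *Hoxc5*, *Hoxc6*, *Hoxc8*, *Hoxc9*, *Hoxd4* and *Hoxd8*, that is 31.8% of the Hox genes tested, where 13.8% of all tested genes fell and 12% rose. At an unadjusted p under 0.05, 11 Hox genes were lower and 0 higher, where 20.2% of all tested genes were lower and 18.3% higher. For 14 of the 22 genes each cKO library was lower than either Ctrl library, where 34.6% of all tested genes did so, and for 1, *Hoxb8*, each was higher, where 31.9% of all tested genes did so. The median log2 fold change was -0.25 over the tested Hox genes and -0.006 over all tested genes. The count of 7 became 1 without Ctrl replicate 1, 3 without Ctrl replicate 2 and 4 without cKO replicate 1, and 3 when genes with low values were kept in the test. With those low genes kept, 1762 of 19030 genes were called in either direction, against 3269 of 12658 in the main fit. Fewer cells of a type and less RNA per cell cannot be told apart in bulk tissue.

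**Figure D2:**
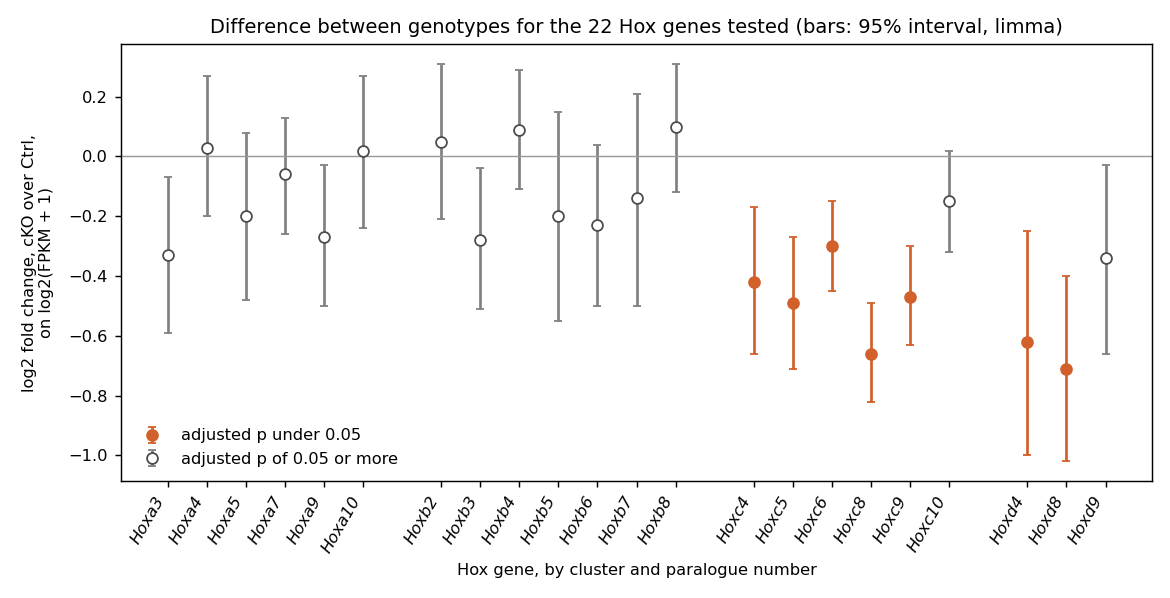
Difference of cKO from Ctrl in mean log2(FPKM + 1) for the 22 tested Hox genes, ordered by cluster and paralogue number, with 95% intervals from limma; filled points have an adjusted p under 0.05. The 7 filled points are *Hoxc4* to *Hoxc9*, *Hoxd4* and *Hoxd8*, and no filled point lies in the Hoxa or Hoxb cluster.

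*Hoxc8*, which patterns the thoracic trunk and is known in adipose progenitors as a brake on brown fat genes, was the highest Hox gene in Ctrl. It was at 39.52 and 37.9 FPKM in Ctrl (38.7 ± 1.15, SD, n = 2) and at 22.9 and 25.58 in cKO (24.2 ± 1.9). Both cKO libraries were well below both Ctrl libraries, a ratio of 0.626, with a log2 fold change of -0.66 ± 0.0701 (SE, limma, adjusted p = 0.00119). At the estimated depths these values stand for about 730 to 1314 reads per library. *Hoxc8* was the only one of the 7 that passed in each of the 4 fits that left out 1 library (-0.73 to -0.58).

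Its neighbours *Hoxc9* and *Hoxc6*, which also mark thoracic positions, fell with smaller estimates. *Hoxc9* was at 10.69 and 10.19 FPKM in Ctrl and 7.33 and 7.22 in cKO, a log2 fold change of -0.47 (adjusted p = 0.00366). *Hoxc6* was at 22.71 and 21.73 in Ctrl and 17.44 and 18.25 in cKO, a log2 fold change of -0.30 (adjusted p = 0.0126). For both genes the gap between genotypes was wider than the gap between libraries of a genotype, but *Hoxc9* did not pass without Ctrl replicate 1 (adjusted p = 0.0646) and *Hoxc6* passed only when cKO replicate 2 was the library left out.

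*Hoxc10*, a gene of the lumbar level that has been linked to the suppression of browning in subcutaneous fat, was the tested Hoxc gene that did not pass. It was at 25.38 and 24.2 FPKM in Ctrl (24.8 ± 0.834, n = 2) and at 23.58 and 21.1 in cKO (22.3 ± 1.75). The cKO libraries were both lower, by a log2 fold change of -0.15 (95% interval -0.32 to 0.02, limma, adjusted p = 0.184). That interval does not reach the estimate for *Hoxc8*, although the difference between the 2 genes was not tested. *Hoxc11*, next to it on the tail side of the cluster, was at 0.31 FPKM or less in every library.

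The head-side end of the cluster was low and also fell. *Hoxc5* was at 5.17 and 4.85 FPKM in Ctrl and 3.07 and 3.48 in cKO (log2 fold change -0.49, adjusted p = 0.00885). *Hoxc4*, a cervical paralogue also known from activated B cells, was at 3.47 and 3.0 in Ctrl and 2.18 and 2.16 in cKO (-0.42, adjusted p = 0.0243). These are small values, about 73.8 to 271 reads per library, and *Hoxc4* passed in none of the 4 fits that left out a library. *Hoxc5* did not pass without Ctrl replicate 1 (adjusted p = 0.104) or without Ctrl replicate 2 (0.0598), and neither gene passed when genes with low values were kept in the test (0.0538 for *Hoxc5*, 0.0777 for *Hoxc4*).

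The Hoxd cluster was the least expressed and showed the lowest ratio. *Hoxd8*, its main member here, was at 9.35 and 7.71 FPKM in Ctrl and 4.18 and 5.52 in cKO (log2 fold change -0.71 ± 0.132, adjusted p = 0.0087). *Hoxd4*, which patterns the upper neck vertebrae, was at 3.36 and 2.77 in Ctrl and 1.27 and 2.05 in cKO (-0.62 ± 0.159, adjusted p = 0.0279). The genotypes did not overlap for either gene. The SD of the cKO libraries was 19.5% of their mean for *Hoxd8* and 33.3% for *Hoxd4*, against 7.8% for *Hoxc8*. *Hoxd8* did not pass without Ctrl replicate 1 (adjusted p = 0.107), and *Hoxd4* did not pass without Ctrl replicate 1 (0.203), Ctrl replicate 2 (0.0893) or cKO replicate 1 (0.0987). With low genes kept in the test, the adjusted p was 0.0778 for *Hoxd8* and 0.128 for *Hoxd4*. *Hoxd9* had the same order of libraries, at 3.22 and 2.51 in Ctrl and 1.81 and 2.28 in cKO, and did not pass (-0.34, 95% interval -0.66 to -0.03, adjusted p = 0.103).

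Paralogues 4 and 8 had members that fell in clusters C and D and members that did not pass in cluster B. For that contrast, the 250 bases before a listed transcript start are shown for 5 of these genes. They are from RefSeq on GRCm38.p6, all on the plus strand: *Hoxc4* at chr15:103034145-103034394, *Hoxd4* at chr2:74721728-74721977, *Hoxd8* at chr2:74704365-74704614, *Hoxb4* at chr11:96318017-96318266 and *Hoxb8* at chr11:96281655-96281904. *Hoxc4* and *Hoxb8* begin further upstream, at 103018097 and 96279401, so the starts used for them lie inside the gene. Capitals mark a TATA box (TATAAA) or a CCAAT box (CCAAT) on either strand.
Hoxc4: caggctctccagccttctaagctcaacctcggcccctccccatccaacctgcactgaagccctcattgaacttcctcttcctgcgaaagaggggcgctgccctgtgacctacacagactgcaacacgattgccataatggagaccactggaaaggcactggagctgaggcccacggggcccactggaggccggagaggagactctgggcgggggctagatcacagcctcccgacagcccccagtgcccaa
Hoxd4: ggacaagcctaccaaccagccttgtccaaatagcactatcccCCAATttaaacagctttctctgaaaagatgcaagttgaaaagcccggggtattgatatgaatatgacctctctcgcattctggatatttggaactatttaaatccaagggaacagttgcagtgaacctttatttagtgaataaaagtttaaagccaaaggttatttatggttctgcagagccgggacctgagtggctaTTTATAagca
Hoxd8: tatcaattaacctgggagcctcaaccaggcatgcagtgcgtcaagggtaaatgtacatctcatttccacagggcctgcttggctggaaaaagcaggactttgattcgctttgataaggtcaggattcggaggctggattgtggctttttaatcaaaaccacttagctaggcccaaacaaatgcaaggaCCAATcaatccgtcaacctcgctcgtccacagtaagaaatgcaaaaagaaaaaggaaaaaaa
Hoxb4: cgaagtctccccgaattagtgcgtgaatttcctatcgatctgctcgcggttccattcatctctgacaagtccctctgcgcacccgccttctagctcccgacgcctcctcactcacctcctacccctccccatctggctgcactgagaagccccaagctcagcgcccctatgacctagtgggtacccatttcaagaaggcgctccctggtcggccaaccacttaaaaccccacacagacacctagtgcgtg
Hoxb8: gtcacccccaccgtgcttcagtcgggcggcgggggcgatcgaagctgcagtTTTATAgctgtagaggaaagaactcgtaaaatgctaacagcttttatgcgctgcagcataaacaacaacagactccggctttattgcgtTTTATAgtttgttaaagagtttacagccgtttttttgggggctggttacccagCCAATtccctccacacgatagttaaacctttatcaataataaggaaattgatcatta

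Among these 5 genes, neither motif separated those that fell from those that did not pass. So few stretches, picked by paralogue number, cannot show whether a motif goes with a call. A CCAAT box was present before *Hoxd4*, *Hoxd8* and *Hoxb8*, and a TATA box before *Hoxd4* and *Hoxb8*, while neither was found before *Hoxc4* or *Hoxb4*. Of 32851 mouse promoter stretches of the same length, 33.8% held CCAAT and 12.4% TATAAA. A Pbx-Hox site (TGATTNAT, in 2.82% of all stretches) and a homeodomain core (TAATTA, in 4.84%) were in none of the 5. RefSeq entries were matched for 16 of the 31 Hox genes, with 18 starts, of which 9 had a CCAAT box and 3 a TATA box. A match of letters is a description and does not show that a factor binds.

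Neither *Hoxb8* nor *Hoxb4* passed, and both had estimates above 0. *Hoxb8*, known for its use in holding myeloid progenitors in culture, was at 2.75 and 2.71 FPKM in Ctrl and 2.99 and 3.0 in cKO (0.10, 95% interval -0.12 to 0.31, adjusted p = 0.466). *Hoxb4*, a regulator of blood stem cells, was at 5.48 and 4.91 in Ctrl and 5.68 and 5.48 in cKO (0.09, 95% interval -0.11 to 0.29, adjusted p = 0.485). Both cKO libraries were above both Ctrl libraries for *Hoxb8*, by 9.71% on the mean, and the genotypes met at 5.48 FPKM for *Hoxb4*.

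Among the other Hoxb genes, *Hoxb3*, which acts in the hindbrain and pharyngeal arches, came nearest to a call. It was at 3.07 and 2.77 FPKM in Ctrl and 2.17 and 2.29 in cKO (-0.28, adjusted p = 0.0818). *Hoxb6* was at 6.28 and 5.44 in Ctrl and 4.3 and 5.43 in cKO (-0.23, adjusted p = 0.193), where the second cKO library almost met the second Ctrl library. The genotypes overlapped for the remaining 3. *Hoxb7* was at 5.74, 4.25, 3.82 and 5.02 FPKM in Ctrl 1, Ctrl 2, cKO 1 and cKO 2 (-0.14). *Hoxb5* was at 2.77, 2.53, 1.74 and 2.66 in the same order (-0.20). *Hoxb2*, which is needed for facial motor neurons, was at 4.2, 3.39, 3.74 and 4.13 (0.05), and cKO 1 gave the lowest value of the cluster's genes *Hoxb5*, *Hoxb6* and *Hoxb7*.

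In the Hoxa cluster 0 of 6 tested genes passed. *Hoxa3*, needed for the thymus and parathyroid, was at 2.17 and 2.22 FPKM in Ctrl and 1.43 and 1.66 in cKO (-0.33, adjusted p = 0.0642). Exons of *Hoxaas2* and *Hoxaas3* overlap it on the opposite strand by 390 and 76 bases, and the libraries do not keep the strand. *Hoxa9*, a gene of blood progenitors and of the posterior trunk, was at 7.12 and 6.43 in Ctrl and 5.0 and 5.95 in cKO (-0.27, adjusted p = 0.0914). *Hoxa5*, which patterns the neck and lung and is abundant in adult fat, was at 3.17 and 2.97 in Ctrl and 2.21 and 2.9 in cKO (-0.20, adjusted p = 0.262). For these 3 genes both cKO libraries were lower than either Ctrl library. The other 3 genes overlapped between genotypes. *Hoxa7* was at 5.3, 5.07, 4.73 and 5.1 FPKM in Ctrl 1, Ctrl 2, cKO 1 and cKO 2 (-0.06). *Hoxa4* was at 2.75, 2.59, 2.58 and 2.93 (0.03). *Hoxa10*, a gene of the lumbar level and the uterus, was at 5.99, 5.16, 5.13 and 6.2 (0.02, 95% interval -0.24 to 0.27).

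The remaining 9 genes had a mean of at most 0.755 FPKM and were not tested. Among them were *Hoxa2*, *Hoxa6*, *Hoxb9*, *Hoxb13*, *Hoxc11*, *Hoxd3*, *Hoxd10* and *Hoxd11*. *Hoxd3* was at 0.75 and 0.56 FPKM in Ctrl and 0.3 and 0.36 in cKO, about 15.3 to 39.9 reads, and *Hoxb9* was at 0.76 and 0.73 in Ctrl and 0.41 and 0.56 in cKO. *Hoxb13* and *Hoxd11*, genes of the tail end, were listed above 0 in cKO 2 only, at 0.04 and 0.02 FPKM, which is about 1.52 and 0.773 reads.

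Summed per cluster, the Hoxc FPKM was 107.1 and 102.2 in Ctrl and 76.57 and 78.05 in cKO, a ratio of 0.739. The Hoxd sum was 17.22 and 14.01 in Ctrl and 7.94 and 10.61 in cKO, a ratio of 0.594. For clusters C and D the genotypes did not overlap. The Hoxa sum was 28.89 and 26.38 in Ctrl and 22.43 and 26.77 in cKO (ratio 0.89), and the Hoxb sum 31.05 and 26.73 in Ctrl and 24.85 and 28.61 in cKO (ratio 0.925), and both overlapped. Over all 31 genes the sum was 184.3 and 169.3 in Ctrl and 131.8 and 144 in cKO. The difference between the clusters was not tested.

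Shares of the Hox sum describe the positional make-up apart from the level. The share of the Hoxc cluster was 58.1% and 60.4% in Ctrl and 58.1% and 54.2% in cKO, so that the genotypes met. The shares of the other clusters did not overlap: Hoxa genes held 15.7% and 15.6% in Ctrl and 17% and 18.6% in cKO, Hoxb genes 16.8% and 15.8% against 18.9% and 19.9%, and Hoxd genes 9.34% and 8.28% against 6.02% and 7.37%. The mean paralogue number, weighted by FPKM, was 7.22 and 7.27 in Ctrl and 7.27 and 7.18 in cKO. Paralogue 8 went from 28% and 28.5% of the Hox sum in Ctrl to 22.8% and 23.7% in cKO, and paralogue 10 from 17.3% and 17.6% to 22.1% and 19.2%. *Hoxc8* and *Hoxc10* were their main members. The paralogue 10 sum itself was lower in cKO, at 31.91 and 29.82 FPKM in Ctrl and 29.09 and 27.68 in cKO, so its larger share reflects a smaller total. Shares of paralogues 2, 3, 4, 6, 7 and 9 did not overlap between genotypes either, and that of paralogue 5 did. The shares of a library add to 100% and so are tied to one another. Those of Hoxa, Hoxb and paralogues 2, 4, 6 and 7 were higher in cKO while their mean FPKM sums were lower. For scale, 34.6% of all tested genes had a lower FPKM in both cKO libraries than in either Ctrl library. For 31.9% it was higher in both.

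**Figure D3:**
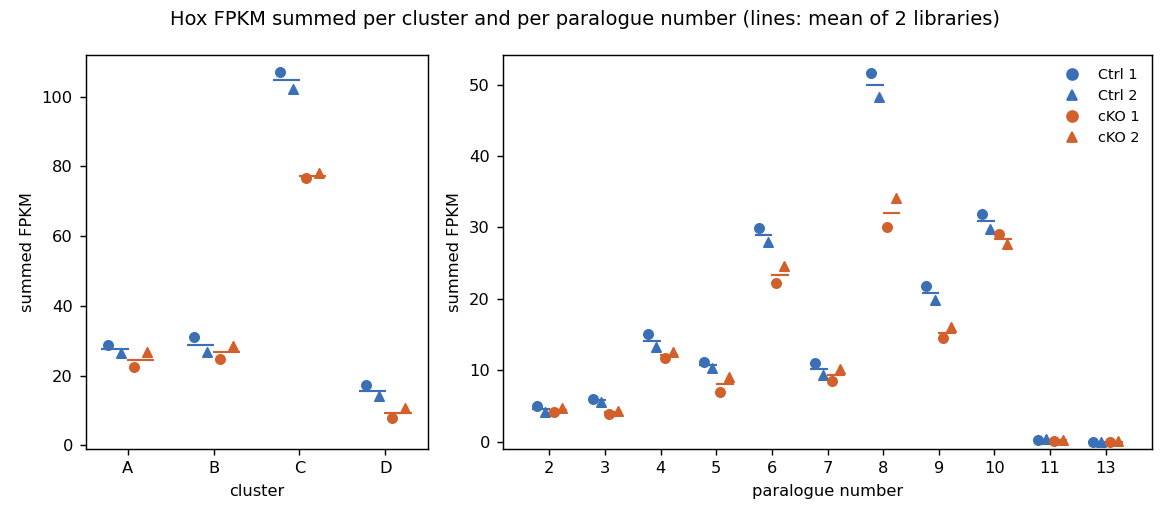
Summed FPKM of the Hox genes per cluster (left) and per paralogue number from 2 (right) in each library, with lines at the mean of the 2 libraries of a genotype; blue is Ctrl and orange cKO. The Hoxc sums are 107.1 and 102.2 in Ctrl against 76.57 and 78.05 in cKO, and paralogue 8 shows the widest gap between genotypes.

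Other genes of the Hox pathway were counted against the 13.8% of all tested genes that fell and the 12% that rose. Of 7 tested TALE cofactors, homeodomain proteins that bind DNA together with Hox proteins, 2 fell and 0 rose. *Meis1* was at 3.05 and 2.46 FPKM in Ctrl and 1.74 and 1.54 in cKO (-0.50, adjusted p = 0.0212). *Pbx2* (0.06) and *Pknox1* (0.16) did not pass. Of 20 tested chromatin regulators of the Polycomb and trithorax type, which keep Hox genes off or on, 0 fell and 1 rose. *Phc2* (0.11), *Bmi1* (0.09) and *Cbx7* (0.07) did not pass. Of the noncoding genes of the clusters only *Hotairm1*, at the head end of the Hoxa cluster, was tested, at 20.21 and 14.01 FPKM in Ctrl and 13.51 and 13.9 in cKO (-0.28, adjusted p = 0.207). *Hotair*, in the Hoxc cluster, was at 0.08 or less in every library. Of the axial regulators only *Gdf11*, a signal that sets posterior Hox expression, was tested (0.33, adjusted p = 0.11).

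Genes of limb and depot position were also examined, beside the same 13.8% of all tested genes that fell and 12% that rose. Of 7 tested limb and flank genes, 5 fell and 0 rose, with a median of -0.62, and of 9 tested depot genes 5 fell and 1 rose, with a median of -0.50. *En1*, which fell, is counted in both lists. *Emx2*, a homeobox gene of the limb girdles, was at 2.72 and 2.24 FPKM in Ctrl and 0.87 and 0.93 in cKO (-0.87, adjusted p = 0.00279). *Prrx1* (-0.68), *En1* (-0.63) and *Twist1* (-0.62), regulators of limb and flank mesenchyme, fell too. *Tbx15*, a marker of subcutaneous fat, was at 9.3 and 7.41 in Ctrl and 3.8 and 4.23 in cKO (-0.89, adjusted p = 0.00197), and *Sfrp2* (-0.68) and *Thbd* (-0.57) also fell. *Irx3* rose from 1.66 and 1.0 FPKM to 2.5 and 2.16 (0.53, adjusted p = 0.0459). *Wt1* and *Tcf21*, markers of visceral fat, were at 0.04 FPKM or less in every library and at 0 in both cKO libraries. *Pitx1* and *Tbx4*, hindlimb genes, were at 0.21 and 0.06 or less in every library. *Tbx5*, another gene of the limb list, was higher, at 1.03 and 1.05 FPKM in Ctrl and 1.05 and 0.78 in cKO, and was not tested.

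Marker lists of cell types also differed between genotypes, some lower and some higher in cKO. Their counts stand beside the 13.8% of all tested genes that fell and the 12% that rose. Of 16 adipose progenitor and fibroblast markers 13 fell and 0 rose (median -0.60), and their summed FPKM was 1715 to 1988 in Ctrl and 1174 to 1194 in cKO. All 11 tested skeletal muscle markers fell (median -6.33), their sum being 1851 to 2710 in Ctrl and 66.03 to 66.49 in cKO, while *Pax7* and *Myog* were at 0.04 FPKM or less in Ctrl and 0 in cKO and were not tested. Of 12 adipocyte markers 6 fell (sum 39093 to 41066 in Ctrl, 29538 to 30196 in cKO), of 4 tested Schwann and nerve markers 4 fell (135.7 to 153 against 46.58 to 56.57), and of 6 endothelial markers 3 fell. In the other direction, 9 of 10 brown fat markers rose (1528 to 1810 in Ctrl, 4077 to 4826 in cKO). So did 6 of 9 B cell and lymph node markers and 5 of 6 T cell markers. Of 8 macrophage markers 3 fell and 3 rose, of 4 smooth muscle markers 1 rose, and the 1 tested keratinocyte marker did not pass. Mesothelial markers summed to at most 2.1 FPKM, and none was tested. The limb and flank list shares 2 genes with the fibroblast list. The part of these cell types in the Hox result was not tested.

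**Figure D4:**
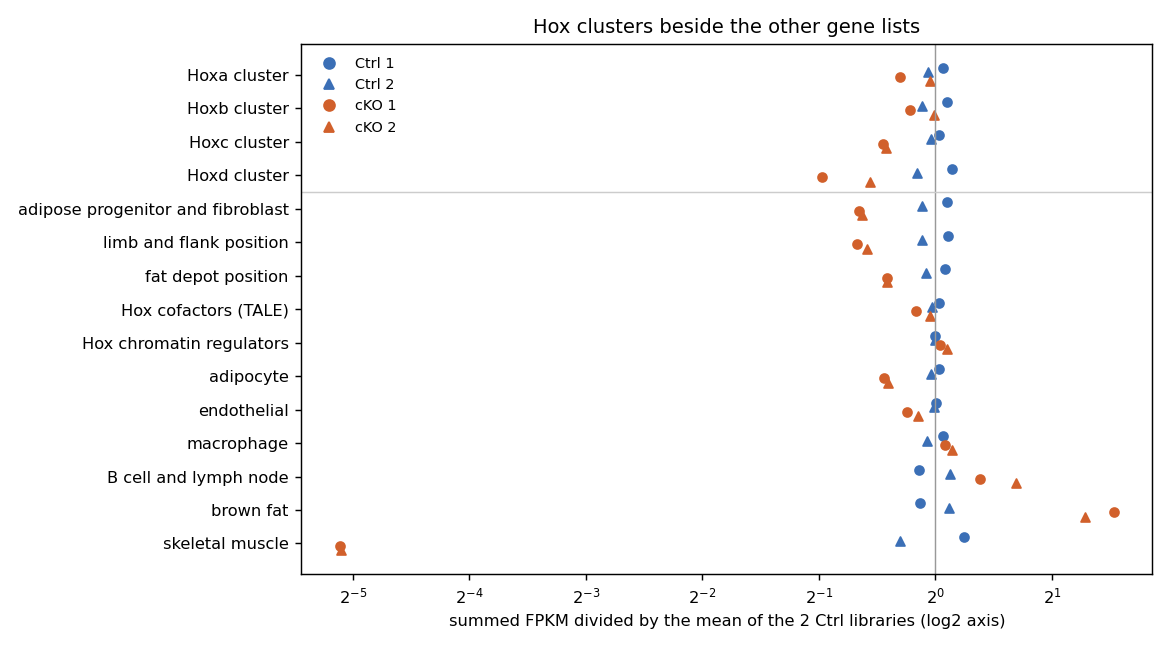
Summed FPKM of the 4 Hox clusters and of 11 other gene lists in each library, divided by the mean of the 2 Ctrl libraries (log2 axis); blue is Ctrl and orange cKO. All 4 Hox sums lie left of 1 in both cKO libraries, and those of Hoxc and Hoxd do not overlap with Ctrl; the progenitor and fibroblast, position and adipocyte sums also lie left of 1, while skeletal muscle lies much further left and brown fat lies right of 1.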

How the data were processed

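RNA was sequenced from ingWAT of 2 Ctrl and 2 cKO libraries, grouped by sample title. The authors selected polyadenylated RNA, primed it at random and read 50 bases single-end, and the submitters' processing notes name HISAT2 2.0.4, RSEM 1.2.12 and mm10. The deposited table gives FPKM per gene and library as computed by the authors, to the hundredth, with no scaling between libraries stated, so no count test was run. Column names were matched to sample titles. Depth was estimated from 319 genes of at most 400 bases, where 82.8% to 88.4% of values were whole reads within 0.1, and simulated libraries erred by at most 1.83%. The number of libraries limits the precision.

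Genes averaging 1 FPKM or more were tested by limma 3.58.1 (R 4.3.3) after adding 1 and taking log2 (eBayes with trend, two-sided, Benjamini-Hochberg, threshold 0.05), a procedure tested on simulated data. Every Hox gene with a mean of at least 1 FPKM is given with its value in each library and the others by number and name. From each list of position genes up to 4 genes are named, those that passed with the largest change first and then those with the highest mean. Values given beyond that rule (*Irx3*, *Pitx1*, *Tbx4*, *Tbx5*, *Wt1*, *Tcf21*, *Hotair*, *Hoxd3*, *Hoxb9*, *Hoxb13*, *Hoxc11* and *Hoxd11*) were chosen after they were seen. Some genes that fall under the rule are not reported here. Members and lists were chosen with earlier results of these data known. Lists are described by counts and medians, without a set test. Gene positions, promoter stretches and the lengths of the short genes used for depth come from RefSeq on GRCm38.p6, and 18977 of 19030 gene IDs matched. Hox transcript lengths and exon overlaps come from GENCODE exons, matched by RefSeq transcript name. Python 3.11.15 was used for the other steps. The alternatives were a pseudocount of 0.1, no filter or a minimum mean of 5 FPKM, scaling by median of ratios or quantiles, a replicate block, eBayes without trend, an added fold threshold and each library left out.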

Additional observations from a re-analysis of the deposited data

How the results depend on the processing

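The count of 7 Hox genes that fell was also 7 with a pseudocount of 0.1, median-of-ratios scaling, quantile normalization and the replicate number as a block, and 9 without the variance trend. Over the whole table the main fit called 3269 of 12658 genes in either direction. The Hox count was 3 with no filter on low values (28 of 31 not passing), where 1762 of 19030 genes were called. It was 4 of 10 tested at a mean of at least 5 FPKM (6 not passing), where 2868 of 8784 were called. It was 0 with an absolute log2 fold change of at least 1 as well, where 233 of 12658 were called. Leaving out 1 library gave 1 to 6: 1 without Ctrl replicate 1, 3 without Ctrl replicate 2, 4 without cKO replicate 1 and 6 without cKO replicate 2, with 16 to 21 not passing and 877 to 2429 genes called over the whole table. No Hox gene rose under any of these settings, and the median stayed between -0.36 and -0.18.

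The replicate block gave 7 genes lower and 0 higher with a median of -0.25. The log2 difference between replicates 1 and 2 of Ctrl correlated at 0.015 with that of cKO over 12658 genes. With only 2 pairs, this value cannot show whether same-numbered libraries share anything beyond the number. With 1 library left out, signs turned for *Hoxa4* (-0.035 to 0.099), *Hoxa10* (-0.098 to 0.134), *Hoxb2* (-0.077 to 0.168), *Hoxb5* (-0.413 to 0.005) and *Hoxb7* (-0.323 to 0.037), none of which passed. The log2 ratio of the sum went from -0.61 to -0.25 for paralogue 5 and from -1.81 to 0.19 for paralogue 11. The cause was not tested. With 1 library left in a genotype, it is assumed to vary like the others. Low Hox genes rest on few reads, which limits them.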
